A study of Mus musculus with 12 samples.

Results

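The collagen genes of mouse embryonic fibroblasts (MEFs) were followed through RNA-Seq read counts of 12 libraries. They were taken as every row of the count table whose symbol reads Col, a type number, the letter a and a chain number, which gave 44 collagen genes of 24062 rows. Of these 44 genes, 24 passed the filter on low counts and were tested, out of 12154 genes tested in all, and 20 did not pass. A pair of MEF lines was used, made with shRNAs brought in by retrovirus. In shRenilla MEFs the shRNA targets a luciferase that mouse cells lack, and in shBruce MEFs shBruce#1 targets Birc6, the gene of the ubiquitin-conjugating enzyme BRUCE. Both were harvested from full medium (FM) and after 2 h without serum and amino acids (Starv), with 3 libraries in each of the 4 conditions. Only 1 line was sequenced for each shRNA, so the knockdown and any other difference between the lines cannot be told apart. Neither strain, age nor the origin of the replicates is given in the sources used here, so p-values measure the spread between these libraries, which may be technical. Birc6 was lower in each shBruce library than in each shRenilla library, at 1287 ± 93.7 against 4339 ± 942 normalized counts in FM and 1035 ± 288 against 4086 ± 1125 in Starv (mean ± SD, n = 3).

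Collagens are secreted proteins in which chains wind around each other into a rope-like helix, and every turn of the helix needs glycine at a fixed spacing. Fibroblasts are a main source of the fibrillar collagens, which assemble into the fibres of connective tissue, and of collagen VI, whose beaded filaments surround the cells. Network-forming collagens build sheets such as the basement membrane, and the FACIT collagens (fibril-associated collagens with interrupted helices) bind to the surface of fibres. Transmembrane collagens stay in the plasma membrane, multiplexins sit beside basement membranes, and collagen VII anchors the epidermis to the tissue below.

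The glycine spacing can be read in the coding sequences, and a stretch of a fibrillar chain is shown beside one of a network-forming chain because this repeat is what the members share. Both come from GENCODE transcripts, have 30 codons each, and carry the glycine codons (GGN) in capitals.
Col1a1, codons 168 to 197: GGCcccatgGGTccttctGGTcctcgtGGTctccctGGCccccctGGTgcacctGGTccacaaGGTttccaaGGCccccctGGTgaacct
Col4a5, codons 1360 to 1389: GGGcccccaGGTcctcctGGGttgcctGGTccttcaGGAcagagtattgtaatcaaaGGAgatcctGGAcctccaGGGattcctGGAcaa
In Col1a1 the glycine codon returned without a break through 338 consecutive repeats. In Col4a5 the longest run was 42 repeats, and the stretch shown crosses its end, where the spacing between capitals widens. The unbroken run was of similar length in Col1a2 (339), Col3a1 (344), Col5a1 (338), Col5a2 (339), Col5a3 (337) and Col11a1 (338). The fibrillar genes Col27a1 and Col24a1 had shorter runs of 217 and 216 repeats. The run was shorter in the other classes, with 40 repeats in Col4a1, 66 in Col4a2, 61 in Col8a1 and 87 in both Col6a1 and Col6a2. Among the FACIT genes it was 32 in Col12a1 and 113 in Col9a3. Glycine codons made up 26.8% of all codons of Col1a1, 28.5% of those of Col4a5 and 9.17% of those of Col12a1, whose long chain is mostly not collagenous.

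Total counts ranged from 7717265 to 18510540 per library, and collagen genes took 0.479% to 0.806% of them. A pair of features of single libraries touched the collagen values. The starved shBruce replicate 1 had the lowest total and yet the most symbols with a count, 16350 against 14182 to 15107 in the other 11 libraries. The shBruce replicate 3 stood apart in both media, where 183 of 12154 genes (1.51%) differed over 2-fold from the mean of the other replicates in the same direction, against 46 and 74 for the other shBruce replicates and 9 to 16 for the shRenilla replicates. Counts of calls, and the members that replicate 3 moved most, are given with and without these libraries. Leaving out the shBruce replicates 3 of both media was decided after the data were seen. Of 10 fibroblast markers 8 passed the filter, with Vim, S100a4, Col1a1 and Col1a2 high, while Thy1 and Lum were at or near 0 and Dcn had a mean of 30.7 normalized counts or less in every condition. The 3 markers of skeletal muscle and the 5 of epithelium did not pass the filter.

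The level of a collagen gene is given as normalized counts per kb of exon, since longer transcripts collect more reads. Col1a1 and Col1a2, the chains of collagen I and so of the main fibres of connective tissue, led at 4346 and 1627 normalized counts per kb over all libraries. Col5a2, a chain of the collagen V that regulates fibre diameter, came next at 1476. The next were Col6a1 at 818, Col5a1 at 668, and the basement membrane chains Col4a1 at 607 and Col4a2 at 533. Col1a1 alone made 38.7% of the summed collagen level, Col1a2 14.5% and Col5a2 13.1%. These shares depend on the length used, above all for Col1a2, as described below. Col3a1, which codes for the fibrillar collagen of skin and vessels and was given as a marker of these cells, stood at 21.5 normalized counts per kb and held rank 18. By its longest transcript it stood at 38.0 and held rank 16.

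For most neighbours in this order the ranges over all libraries overlapped. These ranges pool the lines and media and do not compare genes within a library. Among the leading genes, every library was higher for Col1a1 (2592 to 6385 normalized counts per kb) than for Col1a2 (1125 to 2513), and higher for Col4a2 (421 to 768) than for Col8a1 (154 to 394). Further down, Col16a1 (49.5 to 73.7) was above Col4a5 (9.92 to 36.0) in the same way. The ranges of Col1a2, Col5a2, Col6a1, Col5a1, Col4a1 and Col4a2 overlapped from each gene to the next. Within each library, however, Col4a1 was above Col4a2, with a per-kb ratio of 1.02 to 1.24. The length used for Col1a2 matters, since its summed exons span 12426 bases and its longest transcript 5348. By the longest transcript Col1a1 stood at 4810 and Col1a2 at 3779 normalized counts per kb, with the order of the first 4 genes kept. On that scale the ranges of Col1a1 (2868 to 7066) and Col1a2 (2615 to 5838) overlapped, and Col1a1 was below Col1a2 in 1 library.

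**Figure D1:**
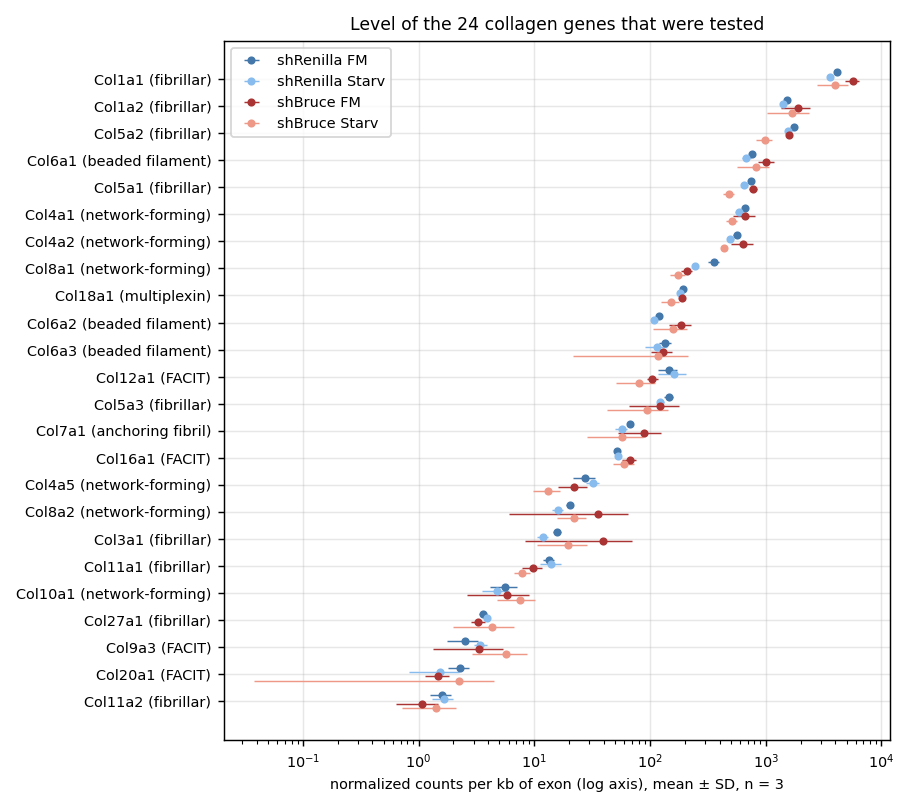
Level of the 24 tested collagen genes in the 4 conditions, as normalized counts per kb of exon on a log axis, with points for the means of 3 libraries, bars for the SD, and the class of each gene in brackets. Levels run from Col1a1 at 4346 down to Col11a2 at 1.43 over all libraries, and Col3a1 sits below the other marker genes at 21.5.

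By class, 9 of 11 fibrillar genes were tested, 6 of 9 network-forming genes, 3 of 6 beaded-filament genes, 4 of 9 FACIT genes, 1 of 2 multiplexins and the anchoring-fibril gene Col7a1. None of the 4 transmembrane genes and of the 2 genes of no class used here was tested. The 20 genes not tested summed to 9 to 31 counts in 11 of the libraries. In the starved shBruce replicate 1 they summed to 79 counts, which is 10.2 CPM (counts scaled to a common total) against 0.608 to 1.78 CPM in the others. There 19 of the 20 genes had at least 1 count, against 6 to 10 in the other libraries, and Col25a1 (7 counts), Col4a6 (6), Col9a2 (3) and Col9a1 (1) had counts in no other library. All genes below the filter showed the same in this library, at 1543 CPM against 349 to 579. Of the 20 genes, Col2a1, Col17a1 and Col23a1 had a count in all 12 libraries, at no more than 11, and the other 17 had 0 in at least 1 library. A count of 0 allows up to 3 counts in a library, for counting error only, so differences in these genes were not detectable at this depth.

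**Figure D2:**
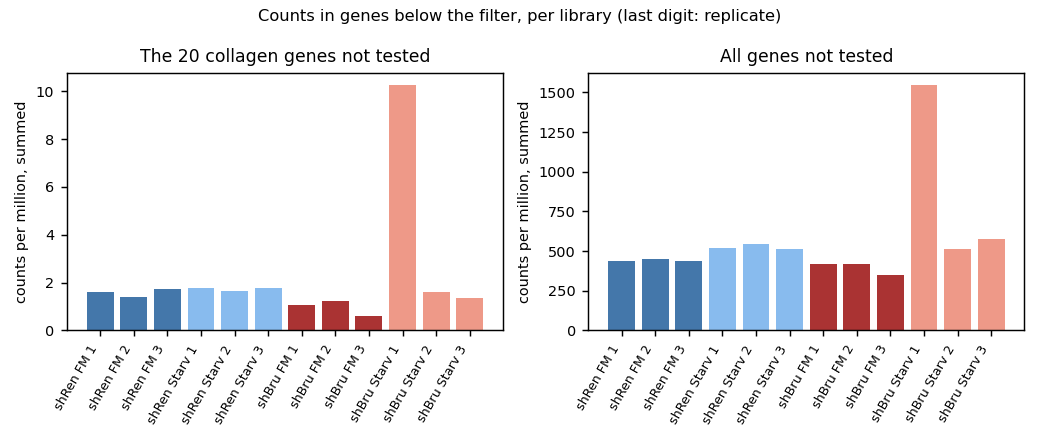
Summed CPM in each library, on the left for the 20 collagen genes that did not pass the filter and on the right for all genes that did not pass. The starved shBruce replicate 1 stands at 10.2 on the left and 1543 on the right, above the other 11 libraries in both.

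Several collagen genes lie beside each other in the genome. In GENCODE M21 on GRCm38, Col4a1 (chr8:11198423-11312826, minus strand) and Col4a2 (chr8:11312805-11449287, plus strand) start head to head and overlap by 22 bases. The overlap is shown because both genes are read from it in opposite directions, written on the plus strand of GRCm38.p6 from RefSeq (chr8:11312805-11312826).
Col4a1 and Col4a2, shared start: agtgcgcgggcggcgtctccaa
The levels of this pair were close, with a per-kb ratio of Col4a1 to Col4a2 between 1.02 and 1.24 in the 12 libraries. Whether the counting used strand is not given in the sources used here, and reads from the overlap would then be uncertain. The other head-to-head pairs were low in at least 1 member. Col4a5 (chrX:141475385-141689234, plus strand) was tested while Col4a6, 1308 bases away, had no count outside the starved shBruce replicate 1, and Col4a3 and Col4a4, 71 bases apart, had at most 4 and 2 counts in a library. Col3a1 (chr1:45311538-45349706, plus strand) and Col5a2 (chr1:45374321-45503282, minus strand) end 24614 bases apart, with 21.5 and 1476 normalized counts per kb.

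Over both media, 7 of the 24 tested collagen genes differed between the lines in edgeR's quasi-likelihood test, against 32.1% of all genes tested. Higher in shBruce MEFs were Col3a1, 1.02 on the log2 scale (SE 0.31, adjusted p = 0.0267), and Col6a2, 0.59 (SE 0.15, adjusted p = 0.0140). Lower were Col4a5, Col12a1, Col11a1, Col8a1 and Col5a2, which fell by 0.40 to 0.78 on the log2 scale. The 2 higher and 5 lower genes stand beside 16.3% and 15.7% of all genes tested. The median log2 fold change of the 24 genes was -0.01, and that of all genes 0.00. Without the shBruce replicates 3 of both media 13 of the 24 genes passed, beside 50.9% of all genes, and without shBruce Starv replicate 3 alone 12 passed, beside 49.5%. For no tested collagen gene were all 6 libraries of a line beyond all 6 of the other, a separation that 4.73% of all genes showed.

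In FM, 0 of the 24 genes passed the test, as did 0% of all genes, while 7 of the 24 and 1750 of the 12154 had an unadjusted p under 0.05. Birc6, the target of the knockdown, did not pass there either (-1.75, SE 0.25, adjusted p = 0.0627). A count of 0 in FM therefore does not show that the lines were alike. DESeq2's Wald test called 1 collagen gene here, Col8a1, beside 0.625% of all genes, and limma-voom called 0, beside 0%. Without the shBruce replicates 3 of both media edgeR called Col7a1, higher, and Col8a1, lower, beside 0.269% of all genes. The FM libraries of the lines did not overlap for 9 of the 24 genes, higher in shBruce MEFs for Col1a1, Col3a1, Col6a1, Col6a2 and Col16a1 and lower for Col5a2, Col8a1, Col11a1 and Col11a2. Those 5 and 4 genes stand beside 16.4% and 17.0% of all genes. In Starv, 6 of the 24 passed and all were lower in shBruce MEFs, beside 23.9% of all genes called, 11.2% lower and 12.8% higher. They were Col4a5, Col12a1, Col11a1, Col5a2, Col8a1 and Col5a1. The Starv libraries did not overlap for 6 genes, all lower, beside 18.5% of all genes lower and 16.4% higher, and these were the same genes but with Col4a2 in place of Col12a1. The line comparisons share libraries with one another, so they are not independent.

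The calls in Starv rested on few libraries. Leaving out either shRenilla Starv replicate 1 or replicate 2 left 0 of the 6 (0% of all genes), and leaving out shBruce Starv replicate 2 left Col5a2 alone (0.122% of all genes). Without shBruce Starv replicate 1 the genes called were Col4a5, Col5a1 and Col5a2, lower, and Col6a2, higher (4.68% of all genes). Without shBruce Starv replicate 3 the count was 9, 1 higher and 8 lower (46.7% of all genes), and without the shBruce replicates 3 of both media it was 12, 4 higher and 8 lower (50.2%). With the trend of each library against transcript length and GC content removed 2 passed, Col12a1 and Col4a5 (8.27%).

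**Figure D3:**
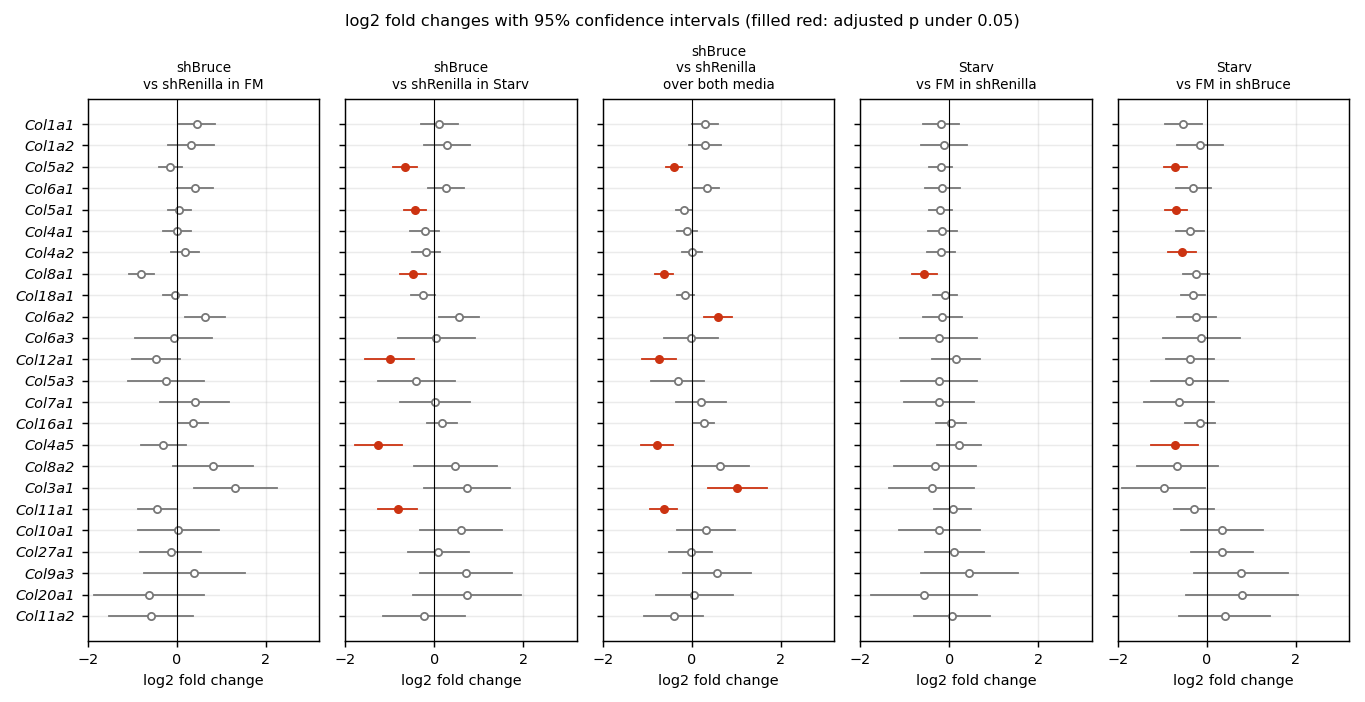
Fitted log2 fold changes of the 24 tested collagen genes with 95% confidence intervals, in order of their level, for the line difference in FM, in Starv and over both media, and for starvation in each line. Filled red points passed the test, which are 0, 6, 7, 1 and 4 genes from left to right.

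Among the fibrillar genes, neither collagen I chain passed the test between the lines, and only Col1a1 had FM groups that did not overlap. Col1a1 (chr11:94936224-94953042) had 25889, 28275 and 27343 normalized counts in shRenilla FM, 31758, 38127 and 41903 in shBruce FM, 24861, 22670 and 23959 in shRenilla Starv, and 31566, 28899 and 17010 in shBruce Starv. In FM the shBruce libraries were all above the shRenilla libraries, while in Starv replicate 3 lay below them and the others above. The log2 fold change between the lines was 0.46 (SE 0.19) in FM and 0.12 (SE 0.19) in Starv, with adjusted p = 0.321 and 0.671. Col1a2 (chr6:4504814-4541544) had 18756, 18804 and 19007 in shRenilla FM, 18647, 20758 and 31223 in shBruce FM, 18304, 16824 and 17011 in shRenilla Starv, and 30177, 19040 and 13983 in shBruce Starv. Its shRenilla libraries lay close together and its shBruce libraries spread widely, with FM replicate 3 and Starv replicate 1 the highest. The line difference of Col1a2 was 0.32 (SE 0.24) in FM and 0.28 (SE 0.24) in Starv, neither past the test. Without the shBruce replicates 3 of both media, the difference in Starv was 0.34 (SE 0.11, adjusted p = 0.0251) for Col1a1 and 0.50 (SE 0.16, adjusted p = 0.0203) for Col1a2, and without shBruce Starv replicate 1 it was -0.070 and -0.089, not past the test. The replicates 3 were left out after the data were seen. In Starv that replicate lay low, at 0.563 and 0.568 times the mean of the others for Col1a1 and Col1a2. The higher values without it therefore give no independent support, and that fit called 50.2% of all genes in Starv.

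Col3a1 was the fibrillar gene that was higher in shBruce MEFs over both media, and 1 replicate carried much of it. It had 169, 144 and 150 normalized counts in shRenilla FM, 175, 245 and 729 in shBruce FM, 128, 103 and 119 in shRenilla Starv, and 125, 159 and 290 in shBruce Starv. The FM groups did not overlap, the Starv groups overlapped, and replicate 3 was the highest in both shBruce groups. Without the shBruce replicates 3 of both media, the log2 fold change over both media was 0.37 in place of 1.02 and kept its call (adjusted p = 0.0284). A fit without 1 shRenilla library lost the call for FM replicate 1 or 3 and for Starv replicate 1 or 2, with adjusted p between 0.0565 and 0.0692 and a log2 fold change of 0.98 to 1.06.

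Of the 5 tested chains of collagens V and XI, which join the core of collagen fibres, Col5a1, Col5a2 and Col11a1 were lower in starved shBruce MEFs and Col5a3 and Col11a2 did not pass. Col5a2 had 17441, 16266 and 17287 normalized counts in shRenilla FM, 15009, 15978 and 15189 in shBruce FM, 15478, 15101 and 13941 in shRenilla Starv, and 8213, 10996 and 8989 in shBruce Starv. The shBruce Starv libraries were below all others. The line difference was -0.66 (SE 0.12, adjusted p = 0.0225) in Starv and -0.14 (SE 0.12, adjusted p = 0.551) in FM. Col5a1 (chr2:27886425-28039514) had 6138, 6290 and 6695 in shRenilla FM, 6134, 7144 and 6690 in shBruce FM, 5891, 5578 and 5136 in shRenilla Starv, and 4376, 4353 and 3581 in shBruce Starv. It too was lowest in the shBruce Starv libraries, with a line difference of -0.43 (SE 0.12, adjusted p = 0.0280) there. With the length and GC trend removed, these differences in Starv were -0.30 for Col5a2 and -0.22 for Col5a1, and neither passed.

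The third chain of collagen V, Col5a3, did not pass in Starv (-0.40, SE 0.40, adjusted p = 0.464), and its shBruce replicates 3 were far below the rest. Without those replicates its line difference in Starv was -0.0039 (SE 0.14). It had 937, 1082 and 942 normalized counts in shRenilla FM, 900, 1186 and 419 in shBruce FM, 900, 788 and 825 in shRenilla Starv, and 809, 863 and 240 in shBruce Starv. Col11a1 (chr3:114030540-114220718) had 191, 156 and 164 in shRenilla FM, 97.7, 129 and 147 in shBruce FM, 215, 180 and 142 in shRenilla Starv, and 96.9, 87.5 and 118 in shBruce Starv. The lines did not overlap in either medium. Its line difference was -0.82 (SE 0.20, adjusted p = 0.0240) in Starv, -0.45 (SE 0.20, adjusted p = 0.329) in FM and -0.64 (SE 0.14, adjusted p = 0.0120) over both. Its partner Col11a2 was at 3.97 to 13.4 normalized counts. Col27a1 ranged from 26.9 to 88.8, and Col2a1 and Col24a1 were not tested.

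**Figure D4:**
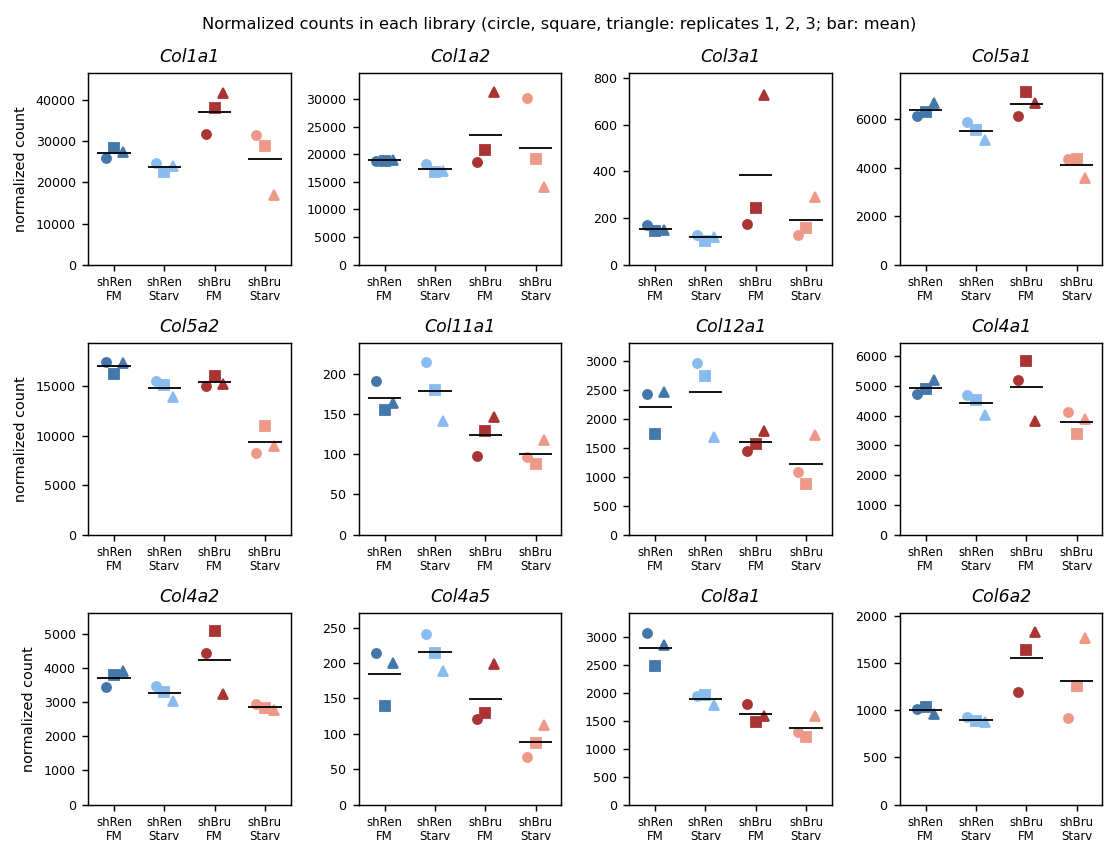
Normalized counts of 12 collagen genes in each library, on linear axes from 0, with circles, squares and triangles for replicates 1, 2 and 3 and a bar for the mean of each condition. For Col8a1 the 3 shBruce FM libraries sit between 1477 and 1807, all below the shRenilla FM libraries, and for Col3a1 the shBruce FM replicate 3 stands apart at 729.

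Among the network-forming genes, Col8a1 had the smallest adjusted p of all collagen genes over both media. It codes for a short chain collagen of vessel walls and of Descemet's membrane in the eye. Col8a1 (chr16:57624258-57754737) had 3086, 2481 and 2862 normalized counts in shRenilla FM, 1807, 1477 and 1587 in shBruce FM, 1947, 1970 and 1792 in shRenilla Starv, and 1306, 1205 and 1587 in shBruce Starv. Within each medium every shBruce library was below every shRenilla library. The line difference was -0.79 (SE 0.13) in FM, -0.48 (SE 0.13, adjusted p = 0.0285) in Starv and -0.63 (SE 0.09, adjusted p = 0.00789) over both. In FM the unadjusted p was 4.8e-05 and the adjusted p 0.194, and 7 of the 27 settings called it. Its partner Col8a2 had 97.1, 84.9 and 89.6 in shRenilla FM, 79.6, 85.8 and 310 in shBruce FM, 81.4, 66.6 and 67.6 in shRenilla Starv, and 72.7, 93.9 and 128 in shBruce Starv. Col8a2 did not pass, its groups overlapped, and replicate 3 was again the highest. Its line difference in FM was 0.81 (SE 0.42) with all libraries and -0.13 (SE 0.22) without shBruce FM replicate 3. The per-kb ratio of Col8a1 to Col8a2 was 13.7 to 18.3 in the shRenilla libraries and 2.93 to 13.0 in the shBruce libraries, of which FM replicate 3 was the lowest.

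The 250 bases before the RefSeq start are shown for Col8a1 and Col4a5, which were both lower in shBruce MEFs, and for Col3a1, which was higher. The capitals mark TATAAA (the TATA box), CCAAT (the CAAT box) and GGGCGG (the GC box) on either strand, and in these windows no match overlapped one of another kind.
Col8a1, GRCm38.p6 chr16:57754738-57754987, minus strand: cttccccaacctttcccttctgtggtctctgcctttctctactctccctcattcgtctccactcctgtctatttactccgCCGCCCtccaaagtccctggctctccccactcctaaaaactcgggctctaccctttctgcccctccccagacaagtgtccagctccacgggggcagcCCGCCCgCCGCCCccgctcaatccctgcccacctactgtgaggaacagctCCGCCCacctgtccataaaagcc
Col4a5, GRCm38.p6 chrX:141475169-141475418, plus strand: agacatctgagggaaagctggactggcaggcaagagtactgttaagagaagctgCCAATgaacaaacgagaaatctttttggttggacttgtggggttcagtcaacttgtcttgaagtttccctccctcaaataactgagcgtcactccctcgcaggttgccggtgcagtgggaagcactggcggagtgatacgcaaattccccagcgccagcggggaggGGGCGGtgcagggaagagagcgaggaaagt
Col3a1, GRCm38.p6 chr1:45311288-45311537, plus strand: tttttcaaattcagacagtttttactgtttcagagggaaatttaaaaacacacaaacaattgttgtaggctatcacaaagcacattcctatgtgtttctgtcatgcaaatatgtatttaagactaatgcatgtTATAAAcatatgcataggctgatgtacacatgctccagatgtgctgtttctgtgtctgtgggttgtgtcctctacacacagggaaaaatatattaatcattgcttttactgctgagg
The window of Col8a1 held GGGCGG alone, that of Col4a5 held GGGCGG and CCAAT, and that of Col3a1 held TATAAA alone. Of 38 collagen promoters in the table, which cover 35 of the 44 genes, 22 held GGGCGG, 13 CCAAT and 5 TATAAA. Of all 32851 promoters of this length 32.7% held GGGCGG, 33.8% CCAAT and 12.4% TATAAA. These are matches of letters and not measured binding sites.

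Of the tested collagen IV chains of the basement membrane, only Col4a5 passed between the lines, and the difference between the chains was not tested. Col4a5 had 215, 140 and 200 normalized counts in shRenilla FM, 121, 129 and 198 in shBruce FM, 242, 215 and 189 in shRenilla Starv, and 66.6, 86.4 and 112 in shBruce Starv. The lines overlapped in FM and were apart in Starv, where the line difference was -1.25 (SE 0.24, adjusted p = 0.0225), the largest of the 24 genes in size. In FM it was -0.31 (SE 0.23, adjusted p = 0.512), and over both media -0.78 (SE 0.17, adjusted p = 0.0112). Col4a1 had 4734, 4894 and 5202 in shRenilla FM, 5215, 5839 and 3814 in shBruce FM, 4696, 4522 and 4018 in shRenilla Starv, and 4130, 3383 and 3894 in shBruce Starv. Col4a2 had 3455, 3806 and 3911 in shRenilla FM, 4443, 5086 and 3239 in shBruce FM, 3483, 3290 and 3026 in shRenilla Starv, and 2959, 2846 and 2788 in shBruce Starv. Neither chain of this pair passed the test between the lines, although the Starv groups of Col4a2 did not overlap, and both had their lowest shBruce FM value in replicate 3. The line difference over both media was -0.11 for Col4a1, with a 95% interval of -0.33 to 0.12, and 0.00 for Col4a2, with an interval of -0.22 to 0.22. Col10a1, a collagen of growth-plate cartilage, ranged from 7.93 to 30.3 normalized counts.

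Of the collagen VI chains 1 of 3 passed over both media, and the difference between the chains was not tested. Col6a2 (chr10:76595762-76623630) had 1017, 1036 and 960 normalized counts in shRenilla FM, 1194, 1641 and 1835 in shBruce FM, 932, 886 and 882 in shRenilla Starv, and 914, 1260 and 1773 in shBruce Starv. The lines were apart in FM and overlapped in Starv through replicate 1. The line difference of Col6a2 was 0.63 (SE 0.21, adjusted p = 0.297) in FM, 0.55 (SE 0.21, adjusted p = 0.0643) in Starv and 0.59 over both media, where 25 of 26 settings called it. Col6a1 (chr10:76708792-76726168) had 3296, 3391 and 3316 in shRenilla FM, 3642, 4686 and 4961 in shBruce FM, 3290, 2802 and 2875 in shRenilla Starv, and 2636, 3325 and 4783 in shBruce Starv. It had the same sign over both media, 0.34 (SE 0.13), without passing (adjusted p = 0.0657). The third chain, Col6a3, had 1585, 1461 and 1833 in shRenilla FM, 1293, 1445 and 1911 in shBruce FM, 1579, 1519 and 1030 in shRenilla Starv, and 793, 699 and 2739 in shBruce Starv. Its starved shBruce replicates lay on both sides of the control, with replicates 1 and 2 below and replicate 3 far above. With all libraries the line difference was 0.04 (SE 0.40) in Starv and -0.01 (95% interval -0.62 to 0.60) over both media. Without shBruce Starv replicate 3 it was -0.89 (SE 0.21, adjusted p = 0.00402) in Starv and -0.48 (SE 0.13, adjusted p = 0.0107) over both, so the call of Col6a3 turned on that library. The per-kb ratio of Col6a1 to Col6a2 was 6.01 to 6.71 in the shRenilla and 5.02 to 5.80 in the shBruce libraries.

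Of the FACIT genes, Col12a1, whose product coats fibrils in tendon and other loaded tissue, was lower in shBruce MEFs. Col12a1 (chr9:79598991-79718831) had 2422, 1742 and 2462 normalized counts in shRenilla FM, 1442, 1563 and 1784 in shBruce FM, 2954, 2736 and 1678 in shRenilla Starv, and 1084, 870 and 1723 in shBruce Starv. The lines overlapped in both media, by shRenilla FM replicate 2 and, in Starv, by replicates 3 of both lines. The line difference was -0.47 (SE 0.25, adjusted p = 0.390) in FM, -1.001 (SE 0.25, adjusted p = 0.0248) in Starv and -0.73 (SE 0.18, adjusted p = 0.0139) over both. With the length and GC trend removed the difference in Starv was -0.53 (adjusted p = 0.0460). Col16a1, found beside fibrils and microfibrils, had 334 to 366 in shRenilla FM and 379 to 494 in shBruce FM, with a line difference over both media of 0.27 (SE 0.11) that did not pass (adjusted p = 0.0765). Col9a3 and Col20a1 ranged from 3.97 to 33.1 and from 2.02 to 24.1. Of the remaining classes, Col18a1, the precursor of endostatin, lay between 937 and 1443 and Col7a1 between 254 and 1161, and neither passed in any comparison with all libraries. Without the shBruce replicates 3 of both media Col7a1 was higher in shBruce MEFs over both media (0.54, SE 0.09, adjusted p = 7.8e-04), in FM (0.71, adjusted p = 0.0436) and in Starv (0.38, adjusted p = 0.0262). Without the same libraries Col18a1 was lower over both media (-0.24, SE 0.07, adjusted p = 0.0172) and in Starv (-0.41, adjusted p = 0.00779), and Col9a3 was higher over both media (0.97, SE 0.23, adjusted p = 0.00483) and in Starv (1.11, adjusted p = 0.0116). Col16a1 passed over both media without them as well (0.30, SE 0.10, adjusted p = 0.0287). These libraries were left out after the data were seen, and they lay low for Col7a1 and Col9a3 and high for Col18a1. The differences of these genes without them therefore give no independent support. That fit called 50.9% of all genes over both media, 50.2% in Starv and 0.269% in FM. Col9a3 had only 4 to 31 raw counts in a library.

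Several marker sums moved with the lines, and that of 5 markers of myofibroblasts and smooth muscle was lower in every shBruce library within each medium. It was 5746 to 6578 normalized counts in shRenilla FM and 1824 to 4446 in shBruce FM, and 3890 to 4786 in shRenilla Starv and 1339 to 3855 in shBruce Starv. Of these markers Acta2 and Tagln carried the sum, and Cnn1, Myh11 and Des had overall means under 10. The sum of 5 chondrocyte markers, carried by Sox9 with the other 4 at overall means under 10, was 270 to 299 in shRenilla Starv and 435 to 775 in shBruce Starv, and overlapped in FM. The sum of 4 endothelial markers, carried by Kdr, was 36.7 to 39.99 in shRenilla FM and 6.94 to 22.0 in shBruce FM, and overlapped in Starv. The sum of 4 leukocyte markers, carried by Cd68, was 91.4 to 105 in shRenilla FM and 109 to 146 in shBruce FM, and overlapped in Starv. The sum of the 10 fibroblast markers, which hold Col1a1, Col1a2 and Col3a1 themselves, was 117768 to 125113 in shRenilla FM and 142936 to 173790 in shBruce FM. This sum overlapped in Starv, and Vim, S100a4, Col1a1 and Col1a2 carried it. Pdgfra went the other way, with shRenilla means of 1787 in FM and 1547 in Starv against shBruce means of 1431 and 1184. Pdgfrb had 945 against 953 in FM. The sums for skeletal muscle, osteoblasts, adipocytes, epithelium, and neural crest and glia overlapped between the lines in both media. Of all genes tested, 16.4% were higher in shBruce MEFs without overlap in FM and 17.0% lower. In Starv these shares were 16.4% and 18.5%. The part of these markers in the collagen differences was not tested, and in bulk RNA fewer cells of a kind and less RNA per cell cannot be told apart.

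Several of the tested collagen genes of shBruce replicate 3 lay apart from those of replicates 1 and 2 in both media. In FM and Starv, Col3a1 was 3.47 and 2.04 times the mean of the other replicates and Col8a2 was 3.75 and 1.54 times. Lower were Col5a3, at 0.401 and 0.287 times, Col7a1, at 0.430 and 0.332 times, and Col9a3, at 0.228 and 0.403 times. Col6a3, at 1.40 and 3.67 times, Col4a5, at 1.59 and 1.47 times, and Col6a2, at 1.29 and 1.63 times, were also above in both media. Col1a1, at 1.20 and 0.563 times, lay on opposite sides. Col5a2, at 0.980 and 0.936 times, stayed near the other replicates. In shRenilla replicate 3 the same ratios for Col3a1 were 0.955 and 1.03 and for Col5a3 0.933 and 0.978. Those for Col9a3 (0.552 and 0.907) and Col6a3 (1.20 and 0.665) were further from 1. Col7a1 had 655, 732 and 688 normalized counts in shRenilla FM, 1096, 1161 and 485 in shBruce FM, 664, 525 and 572 in shRenilla Starv, and 713, 813 and 254 in shBruce Starv. In both media the shBruce replicate 3 of Col7a1 lay below all shRenilla libraries and the other shBruce replicates above them.

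**Figure D5:**
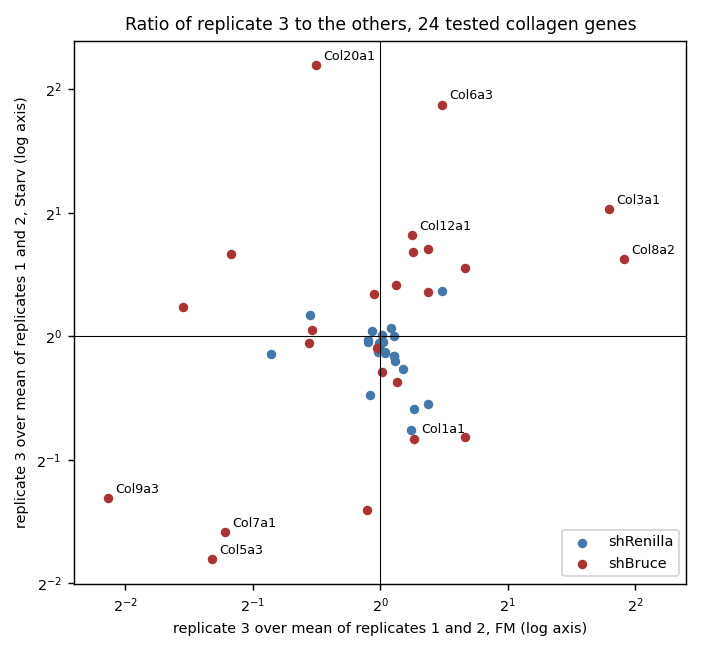
Ratio of replicate 3 to the mean of replicates 1 and 2 for the 24 tested collagen genes, in FM on the horizontal and in Starv on the vertical axis, both on log scales, in red for shBruce and blue for shRenilla MEFs. Col3a1 lies at 3.47 and 2.04 and Col5a3 at 0.401 and 0.287 in shBruce MEFs, while the shRenilla points gather nearer to 1.

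Starvation for 2 h was compared with FM in each line. In shRenilla MEFs 1 of the 24 genes passed, Col8a1, which fell by 0.56 on the log2 scale (SE 0.13, adjusted p = 0.0111), beside 17.0% of all genes called, 7.27% lower and 9.69% higher. The call was lost without shRenilla FM replicate 1 (-0.49, adjusted p = 0.0607), where 9.94% of all genes passed. All Starv libraries were below all FM libraries for 11 of the 24 genes, Col1a1, Col1a2, Col3a1, Col4a1, Col5a1, Col5a2, Col5a3, Col6a1, Col6a2, Col8a1 and Col8a2, beside 26.5% of all genes, and above them for Col9a3 alone, beside 25.9%. Their sizes were mostly small, as -0.19 for Col1a1 and -0.20 for both Col5a1 and Col5a2. The median log2 fold change was -0.18 over the 24 genes and -0.01 over all genes tested.

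In shBruce MEFs 4 of the 24 genes passed and all were lower after starvation, beside 23.0% of all genes called, 10.6% lower and 12.4% higher. Col5a2 fell by 0.71 (SE 0.12, adjusted p = 0.00126), Col5a1 by 0.70 (SE 0.12, adjusted p = 0.00115), Col4a5 by 0.73 (SE 0.25, adjusted p = 0.0494) and Col4a2 by 0.57 (SE 0.15, adjusted p = 0.0135), on the log2 scale. For these genes and Col1a1 the groups did not overlap, 5 of 24 lower beside 14.8% of all genes, and 0 higher beside 16.2%. Col1a1 itself was -0.53 (SE 0.19, adjusted p = 0.0621). The calls of Col5a1 and Col5a2 held in 26 of 27 settings and that of Col4a2 in 24, but that of Col4a5 in 10. The count was 12 without shBruce Starv replicate 3 (11 lower and Col27a1 higher, beside 32.7% of all genes), 9 without the replicates 3 of both media (31.9%), and 2, Col5a1 and Col5a2, without shBruce FM replicate 2 (15.1%). Without shBruce Starv replicate 1 it stayed at 4, with Col1a1 in place of Col4a5. The median was -0.31 over the 24 genes and 0.02 over all. This comparison shares its Starv libraries with the line difference in Starv.

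Whether starvation acted differently in the lines was tested by the interaction of line and medium, which edgeR called for 0 of the 24 collagen genes and 0% of all genes. An unadjusted p under 0.05 was found for 3 of the 24 and 474 of the 12154 genes. The 3 were Col5a2, at -0.52 (SE 0.17), Col5a1, at -0.49 (SE 0.17), and Col4a5, at -0.95 (SE 0.34), each with adjusted p = 0.806. DESeq2, limma-voom and limma-voom with quality weights called 0 collagen genes as well. The fall of Col5a1, Col5a2 and Col4a5 under starvation in shBruce MEFs is therefore not shown to differ from the change in shRenilla MEFs.

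The genes that make, move, cross-link, cut and bind collagen were read as 6 lists with 99 genes, of which 83 were tested. Between the lines 0 of the 83 passed in FM. In Starv 5 were higher, Ppib, Pcolce, Pcolce2, Tgm2 and Timp1, and 13 lower, and over both media 11 were higher and 15 lower. Starvation changed 5 of them in shRenilla MEFs, 1 higher and 4 lower, and 13 in shBruce MEFs, all lower. Leaving out single libraries gave 0 to 39 calls in Starv, 9 to 45 over both media, 2 to 11 for starvation in shRenilla MEFs and 6 to 25 in shBruce MEFs. No gene of the lists (0) was called in Starv when shRenilla Starv replicate 1 or 2, or shBruce Starv replicate 2, was left out, and the highest counts of both line differences came without shBruce Starv replicate 3. The shares of all genes called are those given above for each comparison.

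Over both media 16.3% of all genes tested were called higher in shBruce MEFs and 15.7% lower, and these shares stand beside the counts of each list. Of 19 tested genes of modification and folding in the endoplasmic reticulum, 4 were higher over both media in shBruce MEFs and 0 lower. The 4 were Ppib, Fkbp10, Serpinh1 (the collagen chaperone HSP47) and Pdia3. Ppib, a prolyl isomerase, was at 4102 normalized counts in the starved control line and at 6592 in starved shBruce MEFs (log2 fold change 0.68, SE 0.16, adjusted p = 0.0225). Of 16 genes of secretion and processing 3 were higher over both media, Pcolce, Pcolce2 and Creb3l1, and 3 lower, Sec23a, Tll1 and Adamts14. Pcolce, which enhances the removal of the procollagen tail, rose from 6953 to 10084 (0.54, SE 0.10, adjusted p = 0.0095), and every shBruce library was above every shRenilla library. Its relative Pcolce2 rose from 516 to 894 (0.78, SE 0.18, adjusted p = 0.0129). Of 6 cross-linking genes Tgm2, a transglutaminase, was higher over both media (0.54, SE 0.10, adjusted p = 0.0095), and the lysyl oxidases Lox and Loxl4 were lower.

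Of 8 tested receptor genes 1 was higher over both media, Itga10, and 2 were lower, Itga1 and Itgb1, beside the same 16.3% and 15.7% of all genes. Itgb1, the beta chain shared by the collagen-binding integrins, fell from 17429 to 12183 (-0.52, SE 0.10, adjusted p = 0.0095). Itga1 was at 101 normalized counts in the starved control line and at 41.7 in starved shBruce MEFs (-1.32, SE 0.36, adjusted p = 0.0282). Of 18 matrix partners Aspn was higher over both media and 6 were lower. Aspn had 34.0, 44.0 and 169 normalized counts in shBruce FM and 22.6 to 39.4 in shRenilla FM, and its difference over both media was 1.30 with all libraries and 0.57 (SE 0.19, adjusted p = 0.0252) without the shBruce replicates 3 of both media. Nid2, a basement membrane protein, fell from 863 to 458 (-0.91, SE 0.14, adjusted p = 0.00789), and Tnc, an adhesion-modulating matrix protein, had 2575 against 1064 in Starv (-1.27, SE 0.31, adjusted p = 0.0234). Of 16 genes of degradation 1 was higher over both media, Timp3, and 2 were lower, Mmp2 and Mmp16.

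Under starvation the matrix partner Thbs1 had larger fold changes than any tested collagen gene. Thrombospondin 1 had 36097 normalized counts in FM and 9854 in Starv in shRenilla MEFs (-1.87, SE 0.17, adjusted p = 1.35e-05), and 32134 and 5986 in shBruce MEFs (-2.42, SE 0.17, adjusted p = 1.52e-06). Furin, a proprotein convertase, was lower in Starv in both lines, with log2 fold changes of -0.76 (SE 0.15, adjusted p = 0.00318) and -0.77 (SE 0.15, adjusted p = 0.00235). In shRenilla MEFs Mmp10, which cuts matrix proteins, went from 111 to 25.1 (-2.15, SE 0.61, adjusted p = 0.0278), and the collagen receptor kinase Ddr2 from 4248 to 6651 (0.65, SE 0.19, adjusted p = 0.0327). The fifth gene called there was Mmp14, which was lower. In shBruce MEFs Sec24d, a coat protein of the vesicles that carry procollagen, went from 2034 to 1054 (-0.94, SE 0.23, adjusted p = 0.0093), and Lox, Loxl1 and Loxl4 were lower too.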

How the data were processed

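Poly(A) RNA of the 12 libraries was sequenced by the authors as single-end reads, rRNA reads were removed, and the rest were mapped to mm10 with STAR 2.4.0d and counted per gene with HTSeq 0.5.4p3. The deposited values are raw read counts; annotation and strand setting are not given in the sources used here, and 0 columns were left unused. Lengths and positions came from GENCODE M21 on GRCm38, which matched all 44 members, and promoters from RefSeq.

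Normalized counts are counts divided by the relative effective library size. The test was that of edgeR 4.0.16 under R 4.3.3 (TMM, filterByExpr, 1 mean per condition over all 12 libraries, quasi-likelihood test, two-sided, Benjamini-Hochberg adjustment over all 12154 genes tested, level 0.05). With 3 libraries against 3, groups that do not overlap give an exact permutation p of 0.1, the smallest possible. The fit was tested on simulated counts with large changes in well-counted genes, the same spread for every gene and no library set apart. That setting differs from these libraries, so it says little about small changes here. Alternatives used DESeq2 1.42.0, limma 3.58.1, other normalizations, filters and sample sets, a spline on length and GC content (4 degrees of freedom), and the replicate block.

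Values in every library are given for Col1a1, Col1a2, Col3a1, members called with a mean of at least 50, and their partner chains. Pathway genes named are up to 3 per direction with the largest called change and no overlap; those that fill a count of 5 or fewer outside this rule were named after their values were seen. Members and lists were chosen with earlier results of these data known.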

Additional observations from a re-analysis of the deposited data

How the results depend on the processing

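Of 27 settings, those not named here kept the count of collagen genes called within 1.5 times. In FM (0 called), 1 was called by DESeq2's Wald test, without a filter, and with the trend removed and without shBruce Starv replicate 1, 2 without both shBruce replicates 3, 3 from the FM libraries alone and 10 with quality weights. In Starv (6), 0 were called from the Starv libraries alone and with trend removal plus replicate block, 1 (Col6a2, higher) with the trend removed and without shBruce Starv replicate 1, 2 at 2-fold and with the trend removed, and 12 with quality weights and without both replicates 3. Over both media (7), the count was 1 at 2-fold, 4 with trend removal plus replicate block, 13 without both replicates 3 and 15 with quality weights. For starvation in shRenilla MEFs (1) it was 0 at 2-fold, 2 from those groups alone and 3 with quality weights, and in shBruce MEFs (4) 0 at 2-fold, 2 from those groups alone, 8 with quality weights and 9 without both replicates 3. Leaving out single libraries gave 0 to 1 in FM, 0 to 9 in Starv, 6 to 12 over both media, 0 to 1 for starvation in shRenilla MEFs, 2 to 12 in shBruce MEFs and 0 to 0 for the interaction. The 9 in Starv and the 12 in shBruce MEFs and over both media came without shBruce Starv replicate 3, as did the 1 in FM. The settings that leave out both replicates 3, or combine trend removal with a left-out library, were chosen after seeing the data. Shares of all genes called are given above for only some of these settings. The other counts show how calls move and are not a result about collagen genes. With quality weights 27 of the 83 tested pathway genes were called in FM as well. The cause of these shifts was not tested. Of the log2 fold changes of single genes, 713 of the alternative values kept direction and side of the threshold, 89 lost the call, 16 gained it and 5 reversed. The reversed values were the line difference in Starv of Col1a1 (-0.070) and Col1a2 (-0.089) without shBruce Starv replicate 1, and starvation in shBruce MEFs for Col1a2 without shBruce FM replicate 3 (0.092), without shBruce Starv replicate 3 (0.059) and without both (0.32), none of them a called value. With libraries left out, these differences ranged from -0.070 to 0.34, from -0.089 to 0.50 and from -0.53 to 0.32. Same-numbered libraries correlated between -0.456 and 0.157 over 4 comparisons, and in none were all 3 correlations over 0.1, so the libraries were treated as sharing only a number. In FM, between the lines, every library correlated best with its own number (0.0642 to 0.157), and between media shBruce replicate 3 did so (0.119), a hint from the data and not from the design. With the replicate block, 0, 6, 7, 1, 3 and 0 collagen genes were called in the 6 comparisons, in the order of FM, Starv, both media, starvation in shRenilla and in shBruce MEFs, and the interaction. The median of all genes lay over 0.1 (log2) only for starvation in shBruce MEFs. It was 0.109 there without a filter and 0.110 with upper-quartile normalization, against 0.02 in the main fit. The depth of 7717265 to 18510540 counts limits what can be said of the 20 genes below the filter.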
